A study of Homo sapiens with 6 samples.

Results

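The forkhead genes followed in the RNA sequencing of A431CT and Dsg2KO cells were FOXF2, FOXQ1, FOXC1, FOXA1, FOXA2, FOXE1, FOXO1, FOXO3, FOXP1 and FOXN3. They were picked by symbol, because FOXF2 is almost lost in Dsg2KO cells, FOXQ1 and FOXC1 are its neighbours on chromosome 6, and the others belong to the same family. All 10 were among the 21462 genes of the count table. A431 is a human cell line from an epidermoid carcinoma of the skin, labelled WT in the A431CT group and DSG2 KO in the group made by CRISPR/Cas9 editing of the gene for the desmosomal cadherin Desmoglein-2. Both lines were grown in DMEM with 10% fetal bovine serum, with no treatment named, and each gave 3 libraries of polyA RNA. The 3 Dsg2KO libraries come from the same edited line, and whether that line is a single clone is not given in the sources used here, so loss of Dsg2 and any other difference between the lines cannot be told apart.

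Forkhead proteins are transcription factors that share a winged-helix domain with which they bind DNA, and most recognise short sites built around a run of A bases. FOXA1 and FOXA2 are pioneer factors that can open closed chromatin. The FOXO proteins sit at the end of the insulin and growth factor pathway: the kinase AKT phosphorylates them, which keeps them out of the nucleus and away from their target genes. FOXF2, FOXQ1 and FOXC1 lie side by side at the end of the short arm of chromosome 6. FOXF2 is best known from the mesenchyme of the gut and palate, FOXQ1 from hair and from carcinomas, and FOXC1 from the eye and from skin appendages.

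The libraries held between 12845719 and 16255692 counts, and 3 counts corresponded to between 0.184 and 0.236 CPM (counts relative to the library total, scaled with edgeR's TMM factors). DSG2 was at 330, 320 and 319 CPM in A431CT cells and at 50.9, 55.2 and 49.7 CPM in Dsg2KO cells, so that 16.1% of its level was left. Of 10 keratinocyte markers, 9 had over 3 counts in a library, and their summed level was 10190 to 10890 CPM in A431CT and 10830 to 11200 CPM in Dsg2KO cells, most of it EGFR. KRT14 had 3 counts in all in A431CT and 0 in Dsg2KO cells. Whether the low KRT14 counts come from the counting was not tested. Of the 9 tested keratinocyte markers, KRT5, KRT6A and SFN fell and CDH1 and EGFR rose by the adjusted p-value in edgeR, KRT6A alone past the fold change minimum of 0.5 on the log2 scale, and KRT16, KRT17, TP63 and DSG3 did not pass. The 9 mesenchymal markers summed to 3.41 to 5.68 CPM and 4.83 to 6.44 CPM, with COL1A2 and PDGFRA at 0 in every library and DCN, LUM and THY1 at or under 3 counts. The 5 endothelial markers summed to 8.53 to 11.5 CPM and 15.2 to 15.7 CPM, with KDR and TEK at or under 3 counts and CDH5 and PECAM1 higher in Dsg2KO cells by 0.76 and 0.54 on the log2 scale (adjusted p = 0.00350 and 0.0466, edgeR). The part of these markers in the forkhead results was not tested. The 5 leukocyte markers stayed under 2.70 CPM in sum and the 5 melanocyte markers under 4.50 CPM in every library. In such bulk RNA, fewer cells that express a gene and less RNA per cell cannot be told apart.

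The 3 genes of the chromosome 6 locus are transcribed from the same strand. On GRCh38, FOXQ1 runs from 1312098 to 1314758, FOXF2 from 1389576 to 1395603 and FOXC1 from 1609915 to 1613897. FOXF2 has 2 exons in its canonical transcript, and FOXQ1 and FOXC1 have 1 each. The windows around their starts are shown because 3 neighbouring starts gave 3 different readings of RNA. Each window holds 250 bases before and 50 bases after the RefSeq start on the plus strand of GRCh38.p14. Capitals mark a match to one of 8 forms of the forkhead core, searched on both strands. A form has 7 letters in the order A or G, C or T, a run of 3 A, C or T, and a final A, as in GTAAACA.
FOXQ1, chr6:1311848-1312147: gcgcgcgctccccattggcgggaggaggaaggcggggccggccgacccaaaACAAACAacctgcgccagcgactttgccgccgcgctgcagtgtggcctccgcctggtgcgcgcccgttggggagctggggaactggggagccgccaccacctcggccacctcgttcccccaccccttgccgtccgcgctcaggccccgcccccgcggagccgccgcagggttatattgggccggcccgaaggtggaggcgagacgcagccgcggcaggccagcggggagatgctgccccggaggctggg
FOXF2, chr6:1389326-1389625: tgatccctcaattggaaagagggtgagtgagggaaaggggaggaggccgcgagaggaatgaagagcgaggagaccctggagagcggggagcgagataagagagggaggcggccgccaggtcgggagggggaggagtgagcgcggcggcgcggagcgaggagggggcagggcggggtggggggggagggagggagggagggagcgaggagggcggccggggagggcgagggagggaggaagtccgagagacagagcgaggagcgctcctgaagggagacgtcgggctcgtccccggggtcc
FOXC1, chr6:1609665-1609964: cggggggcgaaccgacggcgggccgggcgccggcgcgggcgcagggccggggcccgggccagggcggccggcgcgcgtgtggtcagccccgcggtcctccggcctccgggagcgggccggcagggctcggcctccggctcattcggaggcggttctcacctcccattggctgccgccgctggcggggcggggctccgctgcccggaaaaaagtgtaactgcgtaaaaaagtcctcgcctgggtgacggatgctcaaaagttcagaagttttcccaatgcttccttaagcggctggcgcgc
All 3 windows were rich in G and C, at 74.7% for FOXQ1, 71% for FOXF2 and 72.7% for FOXC1, against a median of 58.7% over 35116 windows of the same length. The FOXQ1 window held 35 CpG pairs, the FOXF2 window 26 and the FOXC1 window 40, where the median window held 14. One form was found, ACAAACA in the FOXQ1 window, with its first base at -199 from the start. Any of the 8 forms was present in 24.3% of all windows. No form was found in the FOXF2 and FOXC1 windows, which says only that these letters are not there. Of the 10 genes, 9 had such a window, and FOXA2 had none in the table used. The FOXA1 window held a form at -235. FOXO3 had 4 windows, of which 1 held a form, at -234, and FOXP1 had 6 windows, of which 3 held one, at -26, -193 and -129. The windows of FOXE1, FOXO1 and FOXN3 held none.

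FOXF2 had 167, 164 and 184 counts in the A431CT libraries and 5, 3 and 3 counts in the Dsg2KO libraries. All Dsg2KO libraries lay far below all A431CT libraries. On the CPM scale FOXF2 was at 13.2 ± 1.09 (SD, n = 3) in A431CT and at 0.235 ± 0.0872 (SD, n = 3) in Dsg2KO cells. Pooled over libraries, 11 counts against 515 left 1.76% of the A431CT level, with an exact 95% interval for counting error of 0.875% to 3.18%. The log2 fold change was -5.77. These values chose the genes described here and are therefore given without a test. Among 12857 tested genes FOXF2 had the fourth lowest log2 fold change, and it was 1 of 7 genes left with under 5% of their A431CT level. The other 6 were GLB1L2, DUSP2, ZNF726, ZNF350, RNF128 and SGCB, and each had at most 161 counts over the A431CT libraries, against 515 for FOXF2. All 7 passed the low-count filter only through their A431CT counts. The place of FOXF2 follows from the value that chose it, so nothing is read from it.

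Likeness to FOXF2 was measured as the distance between log2 CPM profiles over the 6 libraries, each with its own mean taken off. The closest genes were DUSP2 and ZNF726, at distances of 1.16 each, followed by GLB1L2 at 1.59, ZNF350 at 1.78 and HSPB1 at 1.84. In each Dsg2KO library DUSP2 and GLB1L2 had 0 counts and ZNF726 and ZNF350 at most 1. Their log2 CPM there was set largely by the prior count of 2, so the distances say little about those libraries. FOXF2's own profile had a length of 6.36 on this scale. DUSP2, a phosphatase of MAP kinases, had 43, 28 and 37 counts in A431CT and 0 in every Dsg2KO library. HSPB1, a small heat shock protein, had 138, 104 and 116 counts in A431CT and 6, 6 and 12 in Dsg2KO cells. HSPB1 is known as an abundant gene of epithelial cells, and whether its low counts come from the counting was not tested. These 5 genes lie on chromosomes 2, 19, 11, 19 and 7, none of them near FOXF2.

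**Figure D1:**
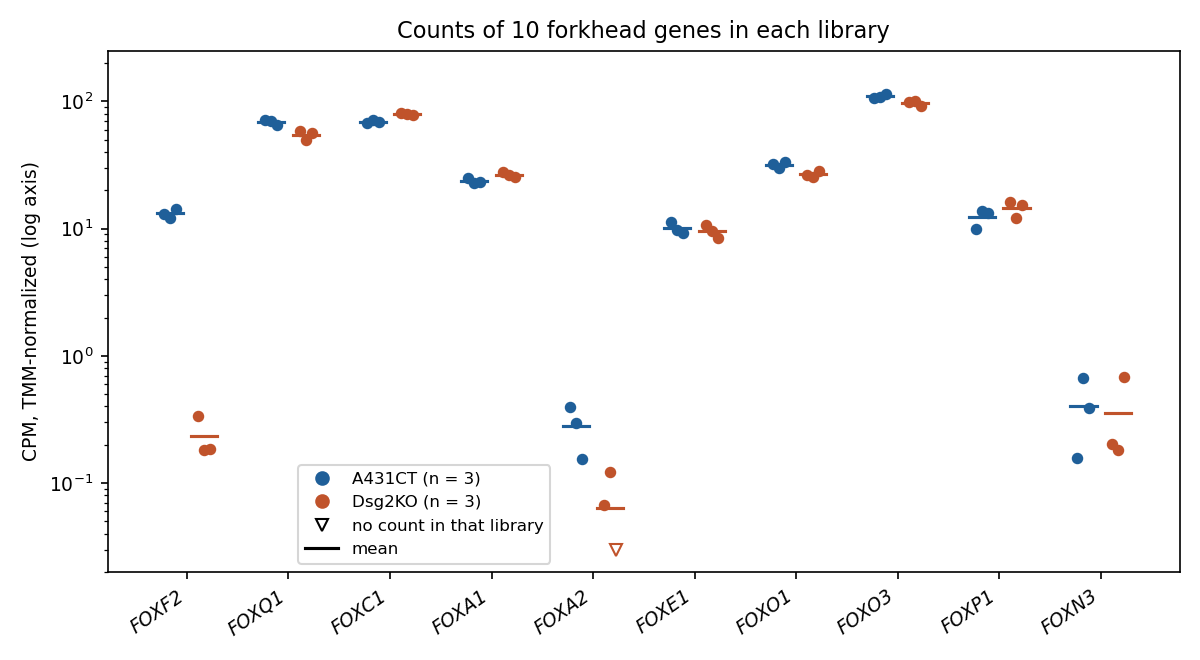
CPM (log axis) of the 10 forkhead genes in each of 3 A431CT (blue) and 3 Dsg2KO (orange) libraries, with lines for the means and an open triangle for a library without counts. FOXF2 dropped from between 12.1 and 14.3 CPM to between 0.183 and 0.336 CPM, while its neighbours FOXQ1 and FOXC1 stayed between 49.5 and 80.8 CPM.

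FOXQ1, 77.5 kb before the FOXF2 start, was at 70.8, 70.4 and 64.7 CPM in A431CT and at 58.4, 49.5 and 56.3 CPM in Dsg2KO cells. The Dsg2KO libraries were all lower and did not overlap with the A431CT libraries. FOXQ1 fell by 0.33 on the log2 scale (standard error 0.07, adjusted p = 0.00155, edgeR's quasi-likelihood test with Benjamini-Hochberg adjustment over all genes tested). This is a small part of the change at FOXF2 and under the fold change minimum of 0.5 on the log2 scale that the study set. FOXC1, 220.3 kb after the FOXF2 start, was at 67.1, 71.0 and 69.1 CPM in A431CT and at 80.8, 79.3 and 77.5 CPM in Dsg2KO cells. All Dsg2KO libraries lay above all A431CT libraries. FOXC1 rose by 0.20 (standard error 0.05, adjusted p = 0.00618, edgeR), also under the fold change minimum. Over the alternatives the log2 fold change stayed between -0.37 and -0.26 for FOXQ1 and between 0.18 and 0.22 for FOXC1.

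A ratio of these neighbours, taken within a library, does not depend on how libraries are scaled. The ratio of FOXC1 to FOXQ1 counts was 0.948, 1.01 and 1.07 in A431CT and 1.38, 1.60 and 1.38 in Dsg2KO cells. Every Dsg2KO ratio was above every A431CT ratio (two-sided exact permutation test, p = 0.1, the smallest that 3 against 3 libraries allow). For each FOXQ1 count there were 0.193 ± 0.0252 FOXF2 counts (SD, n = 3) in A431CT and 0.00425 ± 0.00131 (SD, n = 3) in Dsg2KO cells.

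Past the forkhead genes, the count table held 16 more genes within 2 Mb of the FOXF2 start. With FOXQ1 and FOXC1 this made 18 neighbours, of which 14 were tested and 0 passed both the adjusted p-value threshold of 0.05 and the fold change minimum in edgeR, where 6.03% of all tested genes did, 2.99% as higher and 3.03% as lower. By the adjusted p-value alone 4 of the 14 passed, where 29.6% of all tested genes did. Besides FOXQ1 and FOXC1 these were NQO2, a quinone reductase, at -0.25 on the log2 scale (adjusted p = 0.00178, edgeR), and SERPINB6, an intracellular protease inhibitor, with -0.14 (adjusted p = 0.0478, edgeR). SERPINB6 was not past the threshold with RLE factors, total counts, no low-count filter or DESeq2, or without A431CT replicate 1 or 2 or Dsg2KO replicate 1 or 3 (adjusted p up to 0.175, edgeR). GMDS, the sugar nucleotide enzyme gene that follows FOXC1, was at 30.4 ± 0.816 and 29.1 ± 1.42 CPM (SD, n = 3), a log2 fold change of -0.06 with a 95% interval of -0.21 to 0.09. EXOC2 on the other side, a subunit of the exocyst, was at -0.06 with an interval of -0.25 to 0.12. TUBB2A, a beta-tubulin, was at 0.26 (adjusted p = 0.0519, edgeR), and DUSP22, MYLK4, WRNIP1, SERPINB1, RIPK1, BPHL and PSMG4 lay between -0.12 and 0.21 without passing. The median log2 fold change of the 14 genes was -0.02, beside -0.0048 for all tested genes. IRF4, HUS1B, SERPINB9 and TUBB2B had at most 5 counts in any library and were not tested.

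**Figure D2:**
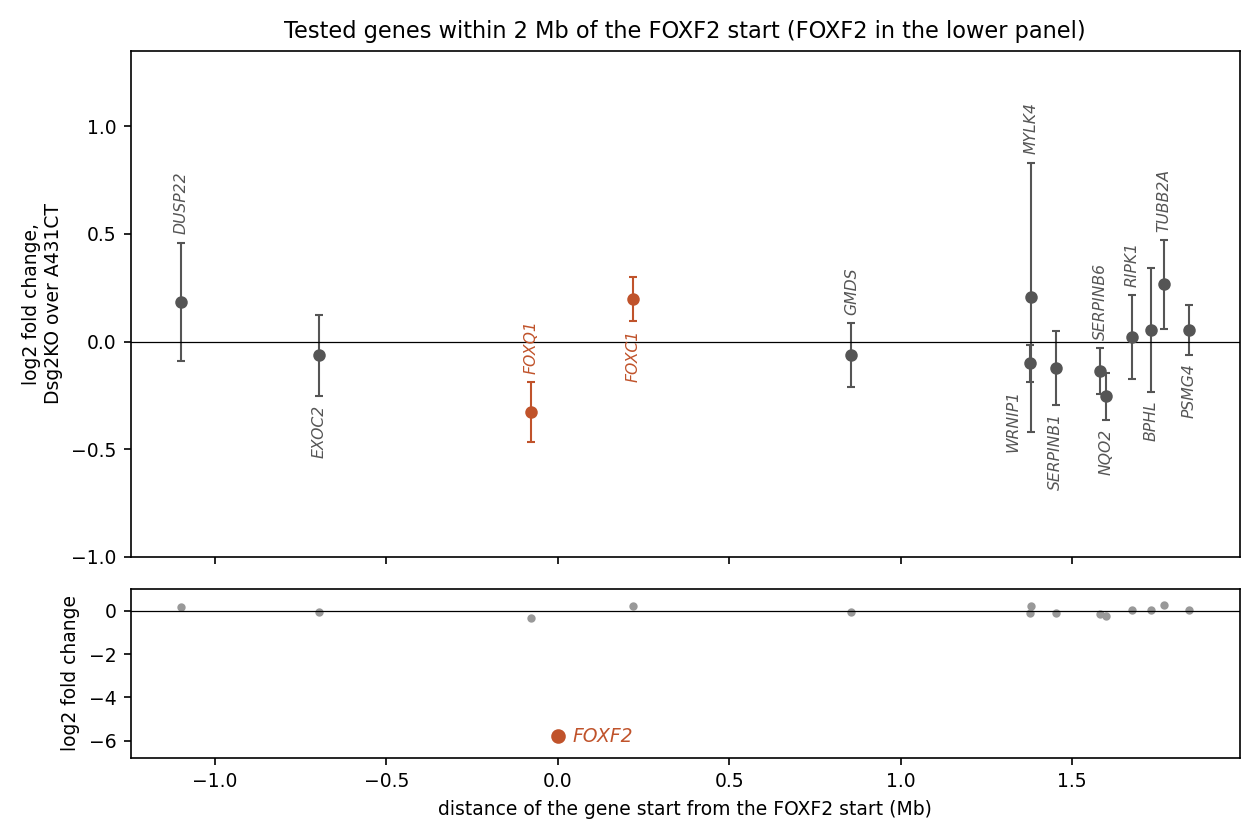
Log2 fold change of Dsg2KO over A431CT cells for tested genes within 2 Mb of the FOXF2 start, against the distance of each gene's start in Mb (upper panel with 95% intervals, lower panel on the scale of FOXF2, orange for forkhead genes above and for FOXF2 below). FOXF2 stood at -5.77 and its 14 neighbours between -0.33 and 0.26.

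The FOXO genes were next by their role. FOXO1, on chromosome 13 from 40555667 to 40666641, was at 31.9, 29.8 and 33.6 CPM in A431CT and at 26.6, 25.3 and 28.5 CPM in Dsg2KO cells. The Dsg2KO libraries were all lower, without overlap. FOXO1 fell by 0.24 on the log2 scale (standard error 0.08, adjusted p = 0.0237, edgeR). It was not past the threshold with DESeq2 (adjusted p = 0.0662), nor with edgeR without A431CT replicate 1 or 3 or Dsg2KO replicate 1 or 2 (adjusted p up to 0.0984).

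FOXO3, on chromosome 6 from 108559835 to 108684774, far from FOXF2, was at 107, 108 and 115 CPM in A431CT and at 99.1, 100 and 92.6 CPM in Dsg2KO cells. Again the Dsg2KO libraries were all lower. FOXO3 fell by 0.17 on the log2 scale (standard error 0.05, adjusted p = 0.0134, edgeR), and without A431CT replicate 3 or Dsg2KO replicate 3 it missed the threshold (adjusted p = 0.0589 and 0.0633, edgeR). FOXO3 shares long stretches of sequence with its copy FOXO3B on chromosome 17, so that reads may have been split between the copies and both values are uncertain. FOXO3B had 433, 572 and 459 counts in A431CT and 451, 497 and 541 counts in Dsg2KO cells, whose libraries were deeper. On the CPM scale FOXO3B was at 37.3 ± 4.32 in A431CT and at 31.4 ± 1.80 in Dsg2KO cells (SD, n = 3), without overlap. It fell by 0.25 on the log2 scale (adjusted p = 0.0338, edgeR). The ratio of FOXO3B to FOXO3 counts was 0.340 ± 0.0450 (SD, n = 3) and 0.324 ± 0.0326 (SD, n = 3), which overlapped.

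The changes of FOXO1 and FOXO3 were close to those of the genes around them. Within 5 Mb of FOXO1 lay 31 other tested genes, with -0.25 as their median on the log2 scale and 28 of them lower in Dsg2KO cells. The 40 other genes within 5 Mb of FOXO3 had a median of -0.22, with 36 lower. FOXO1 differed from the median of its neighbourhood by 0.0085 and FOXO3 by 0.04. The part of these neighbourhoods in the result was not tested. Around FOXQ1, FOXF2 and FOXC1 the medians were between -0.05 and -0.04, over 23 genes each.

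FOXO4, another member of the FOXO branch and not among the 10 genes, was at 18.7 ± 0.725 CPM in A431CT and at 14.8 ± 0.316 CPM in Dsg2KO cells (SD, n = 3). It fell by 0.33 on the log2 scale (adjusted p = 0.0113, edgeR), and the 31 genes around it on the X chromosome had a median of -0.05. Summed over FOXO1, FOXO3 and FOXO4, the level was 158, 155 and 167 CPM in A431CT and 141, 140 and 136 CPM in Dsg2KO cells, without overlap. Most of this sum is FOXO3, and it covers only genes already seen to fall. Among single genes, 42.6% of all tested did not overlap. FOXO6 was at 2.31 ± 0.781 and 2.88 ± 0.653 CPM (SD, n = 3), which overlapped.

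Of 22 genes that act upstream of the FOXO proteins, 21 were tested and 0 passed both thresholds in edgeR, where 6.03% of all tested genes did. The adjusted p-value alone was passed by 11, 10 of them higher and 1 lower, where 14.3% of all tested genes were higher and 15.3% lower. Their median log2 fold change was 0.14, beside -0.0048 for all tested genes. IRS1, the docking protein of the insulin and IGF receptors, rose most, from 63.4 ± 6.48 to 87.6 ± 5.81 CPM (SD, n = 3), by 0.47 on the log2 scale (adjusted p = 1.27e-04, edgeR, standard error 0.07). Its relative IRS2 rose by 0.33, and the PI3-kinase subunits PIK3R1, PIK3CA and PIK3CB by 0.31, 0.21 and 0.18. IRS2 is also on the list of FOXO target genes given below and is counted in both lists. The kinase genes AKT1 and AKT2 were at 0.09 and -0.04 without passing. STK4, a kinase of the Hippo pathway that also phosphorylates FOXO proteins, was the lower gene, at -0.16. Without A431CT replicate 3 or Dsg2KO replicate 1, IRS1 passed both thresholds.

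The list of FOXO target genes had 33 names, of which 31 were analysed here and 26 tested. Both thresholds were passed by 4 of the 26 (6.03% of all tested genes), and the adjusted p-value alone by 14, 8 higher and 6 lower, where 29.6% of all tested genes passed it, 14.3% as higher and 15.3% as lower. The median log2 fold change was -0.11, with 12 genes higher and 14 lower. CCND2, a D-type cyclin that FOXO proteins repress, rose from 34.5 ± 2.32 to 111 ± 8.89 CPM (SD, n = 3), by 1.69 on the log2 scale (standard error 0.07, adjusted p = 3.96e-10, edgeR). BCL6, a transcriptional repressor, rose by 0.51, and was at 0.41 without A431CT replicate 3 and 0.49 without Dsg2KO replicate 2, under the fold change minimum. BNIP3, a mitochondrial protein of mitophagy, fell from 77.6 ± 6.21 to 43.0 ± 1.47 CPM (SD, n = 3), by 0.85 on the log2 scale. PINK1, a kinase that marks damaged mitochondria, fell by 0.53, and was at -0.46 without A431CT replicate 1. The genes within 5 Mb of PINK1 had a median of -0.30, those around CCND2, BCL6 and BNIP3 medians of 0.02, 0.02 and 0.04. The other target genes past the adjusted p-value were found on both sides. MAP1LC3B, RICTOR, CCND1, TNFSF10, ERBB3 and IRS2 rose by 0.43, 0.42, 0.40, 0.33, 0.33 and 0.33. ULK1, SESN1, GADD45A and CDKN1B fell by 0.47, 0.32, 0.29 and 0.22. The list was not split into genes that FOXO proteins induce and genes that they repress.

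**Figure D3:**
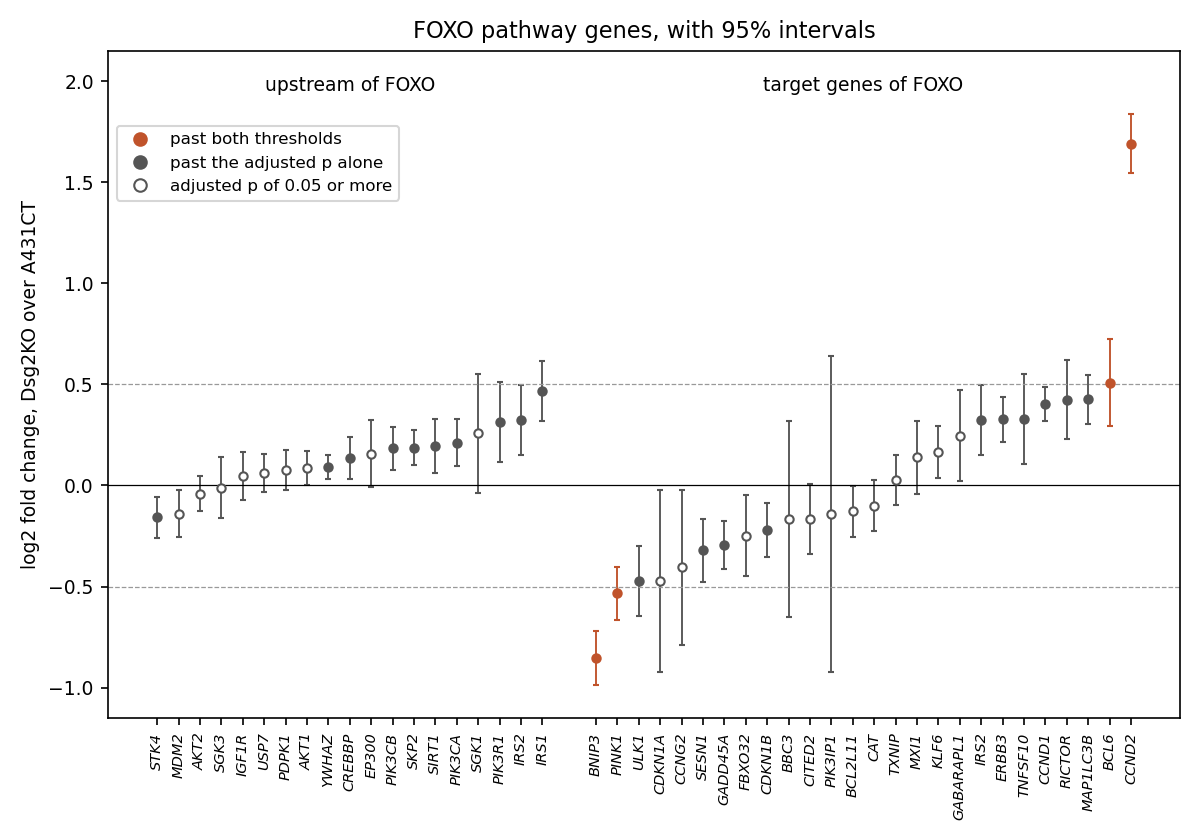
Log2 fold change of Dsg2KO over A431CT cells with 95% intervals for 19 of the 21 tested genes upstream of FOXO proteins and 26 tested target genes, ordered within each list, with dashed lines at the fold change minimum. Points of the upstream list lay between -0.16 and 0.47, and in the target list CCND2, BCL6, BNIP3 and PINK1 passed both thresholds (orange).

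The remaining genes of the 10 differed little or could not be read. FOXA1, on chromosome 14 from 37589552 to 37596059, was at 25.2, 22.7 and 23.4 CPM in A431CT and at 28.0, 26.6 and 25.2 CPM in Dsg2KO cells. The highest A431CT library and the lowest Dsg2KO library nearly met, without overlap. The log2 fold change was 0.16 with a 95% interval of -0.0021 to 0.33 (adjusted p = 0.131, edgeR), so it did not pass. FOXA1 is overlapped by TTC6 on the opposite strand, and whether reads were counted by strand is not given in the sources used here. The same holds for FOXP1, FOXN3 and FOXK2, which antisense genes or WDR45B overlap. Other forkhead genes also have an annotated gene or pseudogene on the opposite strand, among them FOXF2, FOXO1, FOXO3, FOXO6, FOXD1, FOXP3, FOXP4 and FOXM1. FOXP1, a repressor of the FOXP branch on chromosome 3, had 127, 187 and 171 counts in A431CT and 239, 199 and 250 counts in Dsg2KO cells, a log2 fold change of 0.23 with an interval of -0.06 to 0.53 (adjusted p = 0.233, edgeR). FOXE1, a factor of thyroid and hair follicle development on chromosome 9, was at 10.1 ± 1.05 and 9.58 ± 1.13 CPM (SD, n = 3). Its log2 fold change was -0.08 with an interval of -0.37 to 0.21 (adjusted p = 0.698, edgeR). The libraries of FOXP1 and of FOXE1 overlapped between the conditions.

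FOXA2 and FOXN3 did not pass edgeR's filter on low counts. FOXA2 had 5, 4 and 2 counts in A431CT and 1, 2 and 0 counts in Dsg2KO cells. The 3 Dsg2KO libraries, at or under 3 counts, were at 22.5% of the A431CT level with an exact 95% interval for counting error of 4.04% to 85.3%. FOXN3, a repressor linked to cell cycle checkpoints, had 2, 9 and 5 counts and 3, 3 and 11 counts. For FOXN3 that interval ran from 41.7% to 186% of the A431CT level, so a difference was not detectable with these counts. Whether its low counts come from the counting was not tested. The FOXA2 interval lay under the A431CT level, but it rests on 11 and 3 counts and leaves out the spread between libraries.

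Over the 10 genes, 8 were tested. By the adjusted p-value alone 5 of the 8 passed, FOXC1 as higher and FOXF2, FOXQ1, FOXO1 and FOXO3 as lower, and FOXF2 alone also passed the fold change minimum. Of all tested genes 29.6% passed the adjusted p-value and 6.03% both. The libraries did not overlap for 6 of the 8, where this held for 42.6% of all tested genes. Because FOXF2's fold change in the same comparison chose the list, nothing is read from these counts.

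Per kb of canonical transcript, FOXQ1 was at rank 3 of the 23 tested forkhead genes in A431CT cells, at 25.8 CPM per kb, after FOXM1 at 72.8 and FOXK2 at 54.8. FOXJ3 came next at 20.6, then FOXC1 at 17.3 and FOXO3 at 15.0 CPM per kb. FOXA1, FOXO1 and FOXF2 followed at 6.77, 5.50 and 5.37, and FOXE1 and FOXP1 at 2.91 and 1.72. In this order the libraries of FOXO1, FOXF2 and FOXO4 overlapped from one gene to the next, and those of FOXQ1, FOXC1 and FOXO3 did not overlap with the gene below. In Dsg2KO cells FOXF2 was at 0.0958 CPM per kb, a level below FOXD4 at 0.479. Its place among the 23 is not read, because FOXF2 passed the low-count filter only through its A431CT counts. The 26 family genes that did not pass are also left out of the order. FOXQ1 and FOXC1 were at 20.6 and 19.9 CPM per kb in Dsg2KO cells. Their libraries, which had not overlapped in A431CT cells, ran from 18.6 to 22.0 and from 19.5 to 20.3.

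The rest of the forkhead family is described without a comparison to FOXF2, whose fold change chose the list. Besides the 10 genes the table held 39 family members, of which 15 were tested. Both thresholds were passed by 0 of them in edgeR (6.03% of all tested genes) and the adjusted p-value alone by 5 (29.6% of all tested genes), a share near that of all genes. FOXM1, which drives genes of mitosis and is overlapped by ITFG2 and RHNO1 on the opposite strand, rose by 0.15 (adjusted p = 0.00497, edgeR). FOXN2 rose by 0.21 (adjusted p = 0.0324, edgeR), a call that DESeq2 and the omission of A431CT replicate 1 or 3 or of any Dsg2KO replicate removed (adjusted p up to 0.117). FOXJ3 fell by 0.36 (adjusted p = 3.58e-05, edgeR) and FOXK2 by 0.17 (adjusted p = 0.00311, edgeR), and FOXO4 fell as given above. FOXJ3 and FOXK2 were close to their surroundings, where the 121 genes near FOXJ3 had a median of -0.30 and the 81 near FOXK2 a median of -0.18. FOXO6 and FOXD2, on chromosome 1 like FOXJ3, were at 0.32 and -0.05 beside medians of -0.31 and -0.30. Their 95% intervals were wide, from -0.30 to 0.94 for FOXO6 and from -0.41 to 0.31 for FOXD2. The FOXD2 interval included its neighbourhood median, and that of FOXO6 ended next to its own. Neither gene passed the adjusted p-value. FOXD1 and FOXP4 were at 0.19 and 0.16 with adjusted p-values of 0.0561 and 0.0551 (edgeR). FOXK1, FOXJ2, FOXL2, FOXD2, FOXB1, FOXP3 and FOXD4 were between -0.05 and 0.18 and their libraries overlapped, and the reads of FOXD4 are uncertain because it has near-identical copies. FOXF1, the closest relative of FOXF2, had 1 count in a single A431CT library and 0 in the others.

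**Figure D4:**
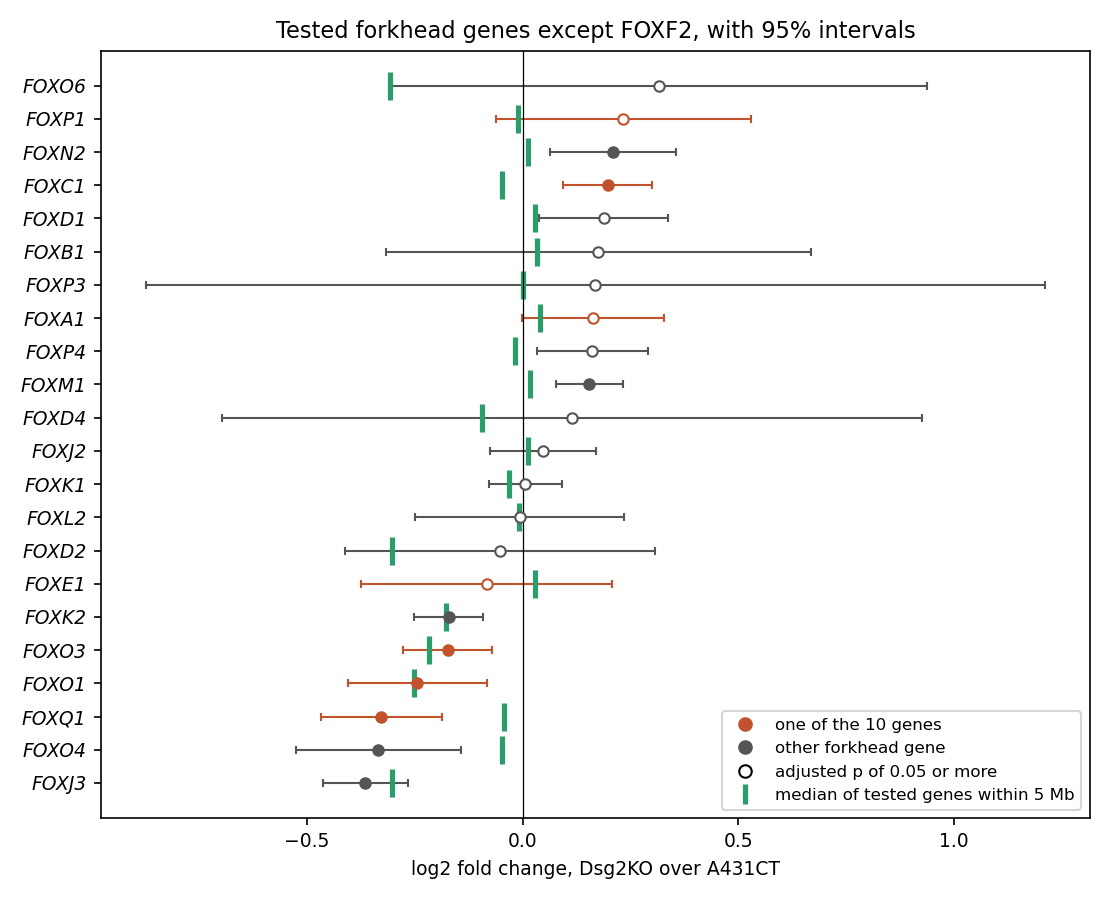
Log2 fold change of Dsg2KO over A431CT cells with 95% intervals for 22 tested forkhead genes other than FOXF2 (orange for genes of the 10, filled where the adjusted p-value was under 0.05), with green bars for the median of tested genes within 5 Mb. FOXO1, FOXO3, FOXK2, FOXJ3, FOXJ2, FOXK1 and FOXL2 lay within 0.07 of their neighbourhood, and FOXQ1, FOXC1, FOXO4, FOXP1, FOXD2 and FOXO6 at least 0.24 away. The 95% intervals of FOXP1 and FOXD2 included their neighbourhood medians, and that of FOXO6 ended next to its own.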

How the data were processed

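PolyA RNA of 3 A431CT and 3 Dsg2KO libraries was measured. Paired reads were trimmed, mapped to GRCh38 and summed by gene with CLC Genomics Workbench by the authors, who deposited raw counts without scaling. Annotation and strand setting are not given in the sources used here.

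Counts were analysed in R 4.3.3 with edgeR 4.0.16: filterByExpr (minimum count 10, minimum total 15), TMM factors, quasi-likelihood tests with the condition as the only term, and Benjamini-Hochberg adjustment over 12857 genes, with the study's thresholds of 0.05 and 0.5. Log2 CPM used a prior count of 2. Intervals are at 95%, and intervals of counts cover counting error only. The biological coefficient of variation was 4.79%. The 10 genes and all lists were chosen with earlier results of these data known, and the lists come from general knowledge. Named were the 10 genes, DSG2, tested forkhead genes, genes within 2 Mb of FOXF2, FOXO pathway genes past both thresholds and the 5 genes most like FOXF2. Other pathway genes, markers and low genes were named after their values were seen, and some upstream genes are counted but not reported here by name. GENCODE 44 placed 19463 of 21462 symbols on GRCh38 and gave transcript lengths, and start windows came from RefSeq. Alternatives included DESeq2 1.42.0, and figures used Python 3.11.15 and matplotlib 3.10.9. Replicates are described by the study as biological, without the source of each culture. No library was a copy of another (chi-square per degree of freedom of at least 2.66 between replicates). Since separate cultures are not described, p-values measure the spread between these samples, which may be technical. Same-numbered replicates did not deviate together (correlations of -0.0027 to 0.0539), so no pairs were used.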

Additional observations from a re-analysis of the deposited data

How the results depend on the processing

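Of 578 log2 fold changes of 45 named genes under 13 alternatives, 525 kept their direction and their side of the adjusted p-value threshold in edgeR or DESeq2. The 525 include FOXF2, the 5 genes most like it and DSG2, which kept theirs wherever they were tested. These were named for their large changes or as the edited gene, so nothing is read from their agreement. FOXQ1, FOXC1, FOXJ3, FOXK2, FOXM1 and FOXO4 kept their calls in all 13. With at least 10 counts required in every library, 0 of the 10 forkhead genes passed both thresholds, since that filter removes FOXF2. Without a fold change minimum 5 of the 10 passed, 5 of the other family members, 4 of the locus genes, 11 of the upstream and 14 of the target genes of FOXO, which follows from the minimum itself, and 29.6% of all tested genes pass that rule. With the minimum raised to 1, CCND2 alone passed among the target genes and FOXF2 alone among the 10 genes. FOXF2's fold change chose the list, so nothing is read from the counts of the 10 genes in these alternatives. Without the low-count filter 1 other family member passed, FOXP2. With each library left out in turn, 0 to 1 upstream genes and 3 to 5 target genes passed both thresholds, while the count of the 10 genes stayed at 1. With all libraries, 6.03% of all tested genes passed both. The replicate block left 1 of the 10 genes past both thresholds and changed no count of calls. TUBB2A passed the adjusted p-value in 7 of the 13 alternatives (0.0153 to 0.256, with 0.0317 under the block), FOXP4 in 4 (0.0308 to 0.184), FOXD1 in 3 (0.0333 to 0.197) and WRNIP1 in 1 (0.0477 to 0.280).

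Signs turned only in genes far from the threshold. FOXL2 was at -0.0071 and became 0.015 with total counts and 0.0019 without the low-count filter. With 1 library left out, log2 fold changes ran from -0.063 to 0.030 for FOXL2, -0.17 to 0.0021 for FOXE1, -0.064 to 0.33 for FOXB1, -0.15 to 0.071 for FOXD2, -0.12 to 0.33 for FOXD4, -0.0069 to 0.023 for FOXK1, -0.24 to 0.92 for FOXP3, -0.16 to 0.033 for EXOC2 and -0.076 to 0.12 for RIPK1. The cause was not tested. The number of the 10 genes whose 5 Mb neighbourhood had a median of at least 0.15 in size was 2, also with windows of 2 and 10 Mb and with each library left out. Low counts limit what can be said of FOXA2 and FOXN3.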

Other observations

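Of the 49 forkhead family symbols analysed, 26 did not pass the filter on low counts, and 5 of these had no count in any library. None of the 26 had more than 17 counts in a library, which was FOXH1 in Dsg2KO replicate 2. FOXP2, a relative of FOXP1 named here after its values were seen, had 0, 8 and 3 counts in A431CT and 0 in every Dsg2KO library, so that 1 A431CT library was also at 0. FOXL1 had 9, 11 and 6 counts in A431CT and 3, 13 and 4 in Dsg2KO cells, which overlapped.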
